A study of Mus musculus with 12 samples.

Results

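The genes described here encode the proteins of the mitochondrial ribosome. They were chosen by symbol: every array feature whose only gene symbol is Mrpl or Mrps followed by digits was taken, pseudogene entries were left out, and a gene with several features would have been represented by the one of highest mean signal. The choice gave 74 genes, each with 1 feature, of 30145 named genes on the array. Of these, 48 encode proteins of the large subunit and 25 encode proteins of the small subunit. The last, Mrps36, carries the name but encodes a subunit of the oxoglutarate dehydrogenase complex. Mrpl30, Mrpl53 and Mrps6 appeared only on features that carry a second gene symbol, and no feature carried the symbol Mrpl58, so these 4 genes have no values here.

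Liver RNA of 12 mice was measured, each liver on its own Affymetrix transcriptome array. Of these mice, 6 were wild type (WT, genotype ENT3 +/+) and 6 were homozygous knockouts (KO, genotype ENT3 -/-), all of strain C57BL6/J and aged 12 weeks, with no treatment named. Each genotype comprised 3 males and 3 females, where sex was read from the letters M and F in the sample titles because the design describes gender-matched groups. The gene for ENT3 is Slc29a3, and its product carries nucleosides across the membranes of lysosomes and mitochondria. The labels name neither a Cre driver nor the part of the gene that was removed.

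Slc29a3 read 4.82 to 5.29 on the log2 scale in WT livers and 4.10 to 4.19 in KO livers, so the groups did not overlap, and all 12 values lay below the 95th percentile of the negative control features of their arrays. Whether this feature covers the removed part is not known. Both hepatocyte and non-hepatocyte transcripts contribute to whole-liver RNA, and fewer cells of a type cannot be told apart from less RNA per cell. Of 7 measured hepatocyte markers, 5, albumin among them, stood at the highest value of the table on all 12 arrays, where only a lower bound is known. The array-level controls differed with genotype. The poly-A spikes, foreign RNAs added to each sample before labelling, averaged 6.30 ± 0.32 in WT and 5.44 ± 0.36 in KO (mean log2 signal ± SD, n = 6 each; two-sided exact permutation of genotype within sex, p = 0.005, adjusted p = 0.01 over 6 array-level measures), and 0.005 is the smallest p the 400 arrangements allow. The positive control features were lower by 0.39 in KO (exact p = 0.01, adjusted p = 0.015), and the 95th percentile of the negative controls was higher by 0.36 (exact p = 0.005, adjusted p = 0.01). In an alternative fit the poly-A level was entered as a covariate, and no mitochondrial ribosomal gene was called in it; otherwise the part of these controls was not tested.

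The mitochondrial ribosome translates the few messenger RNAs made from mitochondrial DNA, all of which encode subunits of the oxidative phosphorylation complexes. Its ribosomal RNAs come from mitochondrial DNA, whereas all of its proteins are encoded in the nucleus, made in the cytosol and imported. Many of these proteins have counterparts in bacterial ribosomes, and others were gained by mitochondria. Promoters of nuclear genes for mitochondrial proteins often bind NRF1, ETS-family factors such as GABP, and YY1.

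Promoter sequences of 65 of the 74 genes were found in the RefSeq table of the GRCm38.p6 assembly, in which each window runs from 250 bases before to 50 bases after a transcription start. Shown here are the bases just upstream of the start for the genes on which the results turn: both largest falls (Mrpl49 and Mrpl50), 4 further genes that fell and differ in the motifs they carry (Mrpl43, Mrpl45, Mrpl12 and Mrps22), and 2 genes without a call that share their start region with another mitochondrial translation gene (Mrps12 and Mrpl46). They are written 5′ to 3′ on the strand of the gene. Capitals mark a match to 1 of 3 motifs on either strand: GCGCA followed by any base and GCGC for NRF1, CCGGAAG for ETS factors and ATGGCGGC for YY1. The motifs and the genes shown were chosen after the values had been seen. The coordinates are chr19:6057756-6057905 for Mrpl49 (minus strand), chr4:49521084-49521175 for Mrpl50 (minus), chr19:45006443-45006557 for Mrpl43 (minus), chr11:97315566-97315715 for Mrpl45 (plus), chr11:120484487-120484636 for Mrpl12 (plus), chr9:98601680-98601829 for Mrps22 (minus), chr7:28741822-28741967 for Mrps12 (minus) and chr7:78783090-78783130 for Mrpl46 (minus).
Mrpl49: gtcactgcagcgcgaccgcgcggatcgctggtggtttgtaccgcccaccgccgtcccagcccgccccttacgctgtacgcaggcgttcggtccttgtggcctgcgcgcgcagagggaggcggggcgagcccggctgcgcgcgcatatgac
Mrpl50: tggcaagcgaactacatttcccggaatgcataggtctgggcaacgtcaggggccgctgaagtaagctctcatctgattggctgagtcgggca
Mrpl43: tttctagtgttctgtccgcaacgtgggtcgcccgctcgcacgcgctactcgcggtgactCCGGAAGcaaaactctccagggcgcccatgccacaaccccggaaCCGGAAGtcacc
Mrpl45: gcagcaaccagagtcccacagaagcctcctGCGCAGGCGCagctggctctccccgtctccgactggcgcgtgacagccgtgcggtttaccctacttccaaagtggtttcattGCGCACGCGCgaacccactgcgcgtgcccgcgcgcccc
Mrpl12: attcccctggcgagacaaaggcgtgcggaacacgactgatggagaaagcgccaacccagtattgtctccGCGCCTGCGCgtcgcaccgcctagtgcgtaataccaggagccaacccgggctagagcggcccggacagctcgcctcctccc
Mrps22: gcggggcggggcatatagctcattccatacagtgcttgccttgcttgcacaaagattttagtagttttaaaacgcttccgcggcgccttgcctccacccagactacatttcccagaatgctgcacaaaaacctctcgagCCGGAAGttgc
Mrps12: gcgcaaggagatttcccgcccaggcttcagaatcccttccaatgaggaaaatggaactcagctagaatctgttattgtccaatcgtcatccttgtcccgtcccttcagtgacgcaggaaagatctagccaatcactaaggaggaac
Mrpl46: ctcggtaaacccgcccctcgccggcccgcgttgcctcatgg

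In these stretches Mrpl45 held 2 matches to the NRF1 motif, Mrpl12 held 1, Mrpl43 held 2 matches to the ETS motif and Mrps22 held 1. No match lay in the stretches of Mrpl49, Mrpl50, Mrps12 and Mrpl46, although the full windows of Mrpl50 and Mrps12 held a YY1 and an ETS match outside the bases shown. Over the full windows, 58.5% of the 65 genes had at least 1 of the 3 motifs, against 20.9% of 17491 protein-coding genes and 15.8% of all genes in the table. By motif, ETS was found in 36.9% of the 65 genes against 12.9% of protein-coding genes, NRF1 in 18.5% against 7.17%, and YY1 in 16.9% against 3.5%. The share with any motif was 60.7% among the 28 genes with a window that were lower in KO and 56.8% among the 37 without a call. By motif, in the same order, it was 28.6% and 43.2% for ETS, 21.4% and 16.2% for NRF1, and 14.3% and 18.9% for YY1. Differences between these shares were not tested. These windows were also rich in the dinucleotide CG, with a median of 21 per window against 13 in protein-coding genes, and a motif match describes letters, not binding.

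Many of these genes start next to another gene that runs the opposite way. Of the 65 genes, 23 (35.4%) had a protein-coding neighbour on the other strand within 1000 bases of the start, against 8.48% of 17491 protein-coding genes. The stretch printed for Mrpl43 is the whole interval between its start and that of Twnk, the mitochondrial DNA helicase, with 116 bases from start to start. Mrpl46 and Mrps11 are such a pair, 42 bases apart. For 21 of the 23, the neighbour was measured too. Of the 11 that fell in KO, the neighbour fell for 3 (Tmem63b beside Mrpl14, Tcp1 beside Mrpl18, Twnk beside Mrpl43) and was not called for the other 8. Of these 8, Cyb5rl, Zfp661, Gga3, Ncapd2 and Zfp189 had mean signals of 3.93, 3.93, 4.08, 4.16 and 5.33. These lie below the mean negative-control limit of 6.50, where a fall may not show. Psma2, Fau and Ptcd2 lay above it, and the called Twnk, at 5.66, below it. Mrpl49, which fell by 1.45 on the log2 scale, starts 192 bases from Fau, a cytosolic ribosomal protein gene that differed by -0.50 ± 0.18 (± SE, adjusted p = 0.117). Mrpl50 fell by 1.30, and its neighbour Zfp189, a zinc finger gene, differed by 0.14 ± 0.06 (adjusted p = 0.208). Among the 10 genes with a measured neighbour and no call of their own, Mrpl46 and Mrps11 being each other's, the neighbour fell in 2 cases, Sars2 beside Mrps12 and Ndufb5 beside Mrpl47. For comparison, 8.33% of all named genes were lower in KO, and 24.3% of those with a mean above the limit. Whether neighbours fall together was not tested.

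The first comparison asked how the KO livers differed from the WT livers over both sexes. Of the 74 genes, 31 were lower in KO, none was higher and 43 passed no test (limma, Benjamini-Hochberg adjusted p below 0.05 over 65956 features). By the same test 4.47% of all features and 8.33% of all named genes were lower, and 5.82% of named genes were higher. A difference below 0 was found for 70 of the 74 genes, against 40.9% of all named genes. The median difference was -0.25, against 0.03 over all named genes, and single genes ranged from -1.45 to 0.30. Many named genes give no signal above background, so the same shares were taken over the genes whose mean exceeded the negative-control limit of 6.50, a restriction chosen after the values were seen. Among these, 24.3% of 6621 genes and 52.3% of the 44 mitochondrial ribosomal genes (23 genes) were lower, with median differences of -0.09 and -0.39. Of the 30 genes at or below that limit 8 were called, with a median over the 30 of -0.19.

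With the mean poly-A spike level as a covariate, 0 of the 74 genes were called by limma. At an unadjusted p below 0.05 there were 9, of which 8 were below 0. The median became -0.12, 47 of the 74 genes remained below 0, and so did 28 of the 31 called genes; the exceptions were Mrpl16 (0.06), Mrpl43 (0.04) and Mrpl52 (0.03). Of all 30145 named genes 1 was lower and 1 higher in that fit, so few calls of any kind were left. The targeted gene Slc29a3 was not called in it either, at -0.80 ± 0.18 (limma, adjusted p = 0.222), against -0.94 ± 0.07 without the covariate. Only KO male 19 had a poly-A level within the WT range, so poly-A level and genotype can hardly be told apart.

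**Figure D1:**
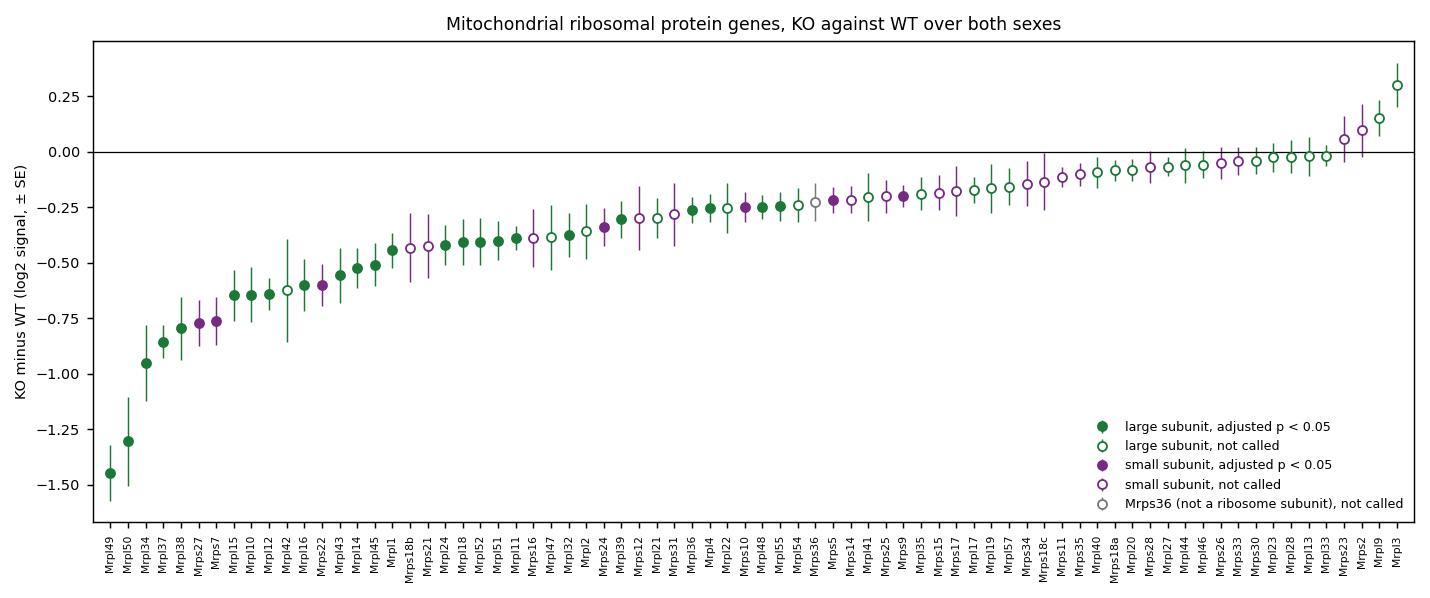
Difference between KO and WT livers over both sexes for each of the 74 genes, in log2 signal units with the standard error of the fit (12 mice). Filled points passed the adjusted p threshold of 0.05; all 31 lie below 0, from Mrpl49 at -1.45 to Mrps9 at -0.20, and the 4 points above 0 (Mrps23, Mrps2, Mrpl9 and Mrpl3) are open.

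Mrpl49 and Mrpl50, both mitochondria-specific proteins of the large subunit, had the largest falls. Mrpl49 read 7.21, 7.78 and 7.88 in WT males and 7.31, 7.11 and 7.53 in WT females, and 6.17, 6.24 and 6.42 in KO males and 5.65, 5.70 and 5.95 in KO females. Every KO liver was below every WT liver, and the KO females were the lowest of all. Every KO value also lay below the negative-control limit of its array, so the size of the fall is uncertain. The fall of 1.45 ± 0.12 on the log2 scale (± SE) corresponds to 2.72-fold (adjusted p = 0.00045). Mrpl50 read 10.57, 10.97 and 10.63 in WT males and 10.88, 9.94 and 10.34 in WT females, and 9.18, 8.80 and 9.85 in KO males and 9.14, 9.10 and 9.44 in KO females. Its groups did not overlap, but WT female 27 at 9.94 and KO male 39 at 9.85 came close. It fell by 1.30 ± 0.20, or 2.47-fold (adjusted p = 0.0036). With the poly-A covariate the values of Mrpl49 and Mrpl50 were -1.49 ± 0.32 and -2.01 ± 0.45.

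Mrpl37, another mitochondria-specific protein of the large subunit, fell evenly. It read 7.97, 8.08 and 8.05 in WT males and 7.83, 8.13 and 7.98 in WT females, against 7.02, 7.32 and 7.32 in KO males and 7.18, 7.11 and 6.97 in KO females. The SD was 0.11 in WT and 0.15 in KO (n = 6 each), the groups did not overlap, and the fall of 0.85 ± 0.08 was 1.81-fold (adjusted p = 0.00049). Mrpl34, which has a bacterial counterpart, read 5.30 to 6.20 in WT and 4.20 to 5.26 in KO. It fell by 0.95 ± 0.17, or 1.94-fold (adjusted p = 0.0072), but lay below the negative-control limit on all 12 arrays, so the size of its fall is uncertain; with the poly-A covariate its difference was -0.44 ± 0.40. Mrpl38, a protein of the central protuberance of the large subunit, read 6.62 to 7.48 in WT and 5.81 to 6.77 in KO, where KO male 19 at 6.77 passed WT female 25 at 6.62. It was above the negative-control limit on 7 of the 12 arrays. It fell by 0.79 ± 0.14 (adjusted p = 0.0073), and with the poly-A covariate its difference shrank to -0.12 ± 0.28, whereas that of Mrpl37 was -0.78 ± 0.19.

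In the small subunit, Mrps27, Mrps7 and Mrps22 fell most. Mrps27, a pentatricopeptide repeat protein, read 7.70, 7.59 and 7.41 in WT males and 7.27, 7.40 and 7.66 in WT females, and 6.54, 7.07 and 6.88 in KO males and 6.60, 6.57 and 6.75 in KO females. The groups were apart, and it fell by 0.77 ± 0.10, or 1.71-fold (adjusted p = 0.0021). Mrps7, a protein of the head of the subunit with a bacterial counterpart, read 7.58 to 8.09 in WT, 7.25 to 7.48 in KO males and 6.43 to 6.85 in KO females. Thus the KO males lay just under the WT range and the KO females clear of it, and the fall over both sexes was 0.76 ± 0.11 (adjusted p = 0.0025). Mrps22, a mitochondria-specific protein, read 7.32 to 7.66 in WT and 6.75 to 7.16 in KO and fell by 0.60 ± 0.10 (adjusted p = 0.0042). With the poly-A covariate the differences were -0.55 ± 0.25 for Mrps27, -0.55 ± 0.27 for Mrps7 and -0.80 ± 0.24 for Mrps22. Mrps27 was above the negative-control limit on 8 of the 12 arrays, Mrps7 on 10 and Mrps22 on 11.

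The stalk of the large subunit, which recruits translation factors, had 3 of its 4 measured proteins lower: Mrpl10, Mrpl11 and Mrpl12, all with bacterial counterparts. The median of the 4 was -0.51. Mrpl12 read 7.26, 7.52 and 7.49 in WT males and 7.42, 7.44 and 7.59 in WT females, and 6.95, 6.93 and 6.78 in KO males and 6.59, 6.90 and 6.74 in KO females. The values were tight in both genotypes and did not overlap, with a fall of 0.64 ± 0.07, or 1.56-fold (adjusted p = 0.0011). Mrpl10 read 8.58 to 9.30 in WT and 8.02 to 8.57 in KO, a fall of 0.64 ± 0.12 (adjusted p = 0.0099) with the ranges almost touching. With the poly-A covariate its difference shrank to -0.09 ± 0.25, while those of Mrpl12 and Mrpl11 were -0.43 ± 0.17 and -0.32 ± 0.14. Mrpl11 fell less, by 0.39 ± 0.05 (adjusted p = 0.0024), but evenly: WT livers read 7.35 to 7.52 and KO livers 6.93 to 7.11. Mrpl54, the fourth, differed by -0.24 ± 0.08 without passing (adjusted p = 0.085).

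Mrpl15 and Mrpl16, core proteins with bacterial counterparts, completed the 12 largest falls. Mrpl15 read 7.86 to 8.56 in WT and 7.35 to 7.77 in KO and fell by 0.65 ± 0.11 (adjusted p = 0.0070), with -0.44 ± 0.29 under the poly-A covariate. Mrpl16 read 8.21 to 8.41 in WT and 7.51 to 7.76 in 5 KO livers, and KO male 19 at 8.32 lay inside the WT range. Its fall over all mice was 0.60 ± 0.12 (adjusted p = 0.010), and its difference with the poly-A covariate was 0.06 ± 0.18.

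**Figure D2:**
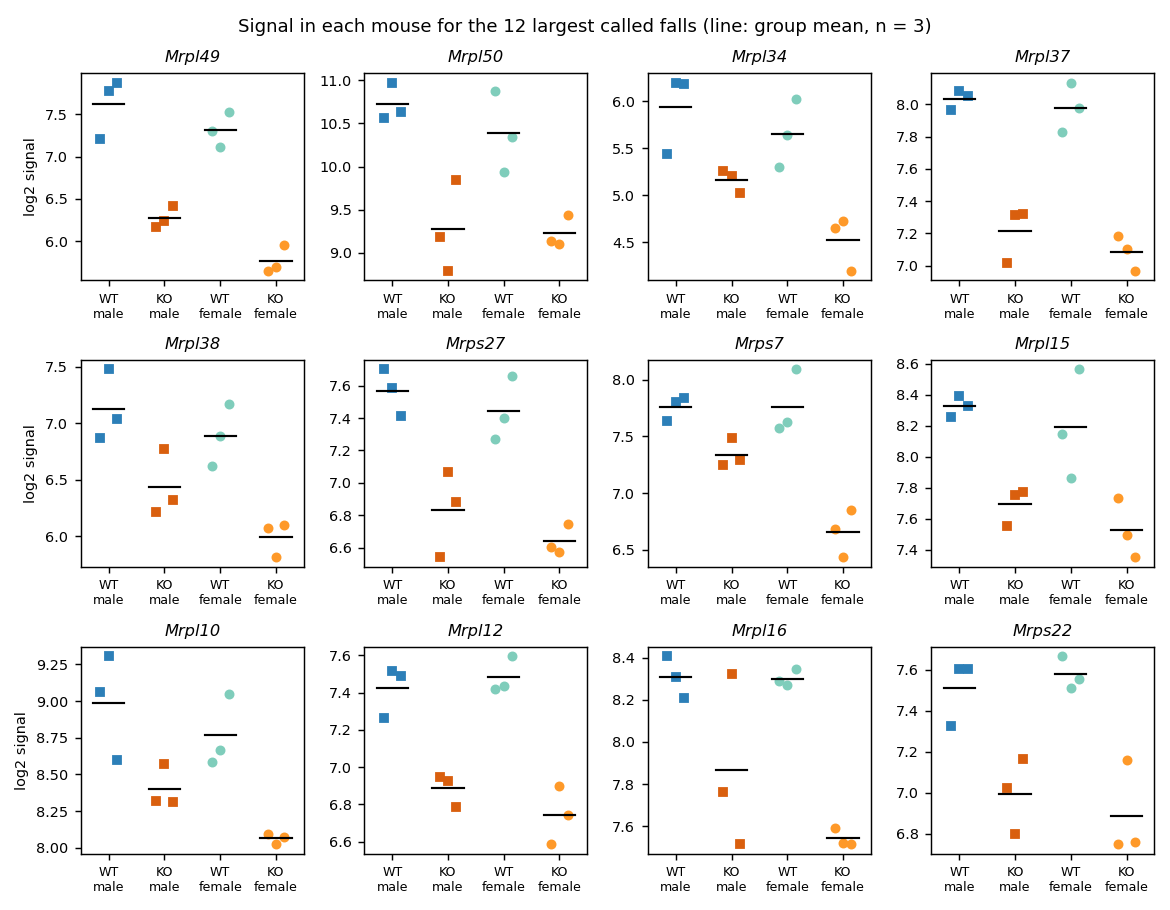
Log2 signal of each mouse for the 12 genes with the largest falls, by genotype and sex, with the mean of 3 mice as a line; each panel has its own axis. In 10 panels every KO point is below every WT point, and in the panels of Mrpl38 and Mrpl16 KO male 19 reaches into the WT range.

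The 12 largest falls were also the only ones of at least 1.5-fold among the 31, where 2.37% of all features passed both limits downward. The other 19 fell by 0.20 to 0.56. They were, in the large subunit, Mrpl1, Mrpl4, Mrpl11, Mrpl14, Mrpl18, Mrpl24, Mrpl32, Mrpl36, Mrpl39, Mrpl43, Mrpl45, Mrpl48, Mrpl51, Mrpl52 and Mrpl55, and in the small subunit Mrps5, Mrps9, Mrps10 and Mrps24. Of the 31, 19 had every KO liver below every WT liver, a pattern found in 3.65% of all named genes, and 12 overlapped. None of the 43 genes without a call was separated in this way. When each mouse in turn was left out, 20 of the 31 kept their call in all 12 fits, and the count lower ran from 21 to 31. The 11 that lost it at least once were Mrpl4, Mrpl18, Mrpl32, Mrpl36, Mrpl39, Mrpl52, Mrpl55, Mrps5, Mrps9, Mrps10 and Mrps24, all with falls of 0.41 or less.

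By structure, 24 of 48 large-subunit genes (median -0.28) and 7 of 25 small-subunit genes (median -0.20) were lower. For comparison, 8.33% of all named genes and 24.3% of those above the negative-control limit were lower, and the small-subunit share is near the latter. Neither share is a like measure, because both subunits mix genes above and below that limit. On all 12 arrays 13 of the 48 large-subunit and 7 of the 25 small-subunit genes lay below it. The difference between the subunits was not tested. Genes with a bacterial counterpart (19 of 44, median -0.25) and those classed as mitochondria-specific (12 of 29, median -0.25), where Mrps18a and Mrps18b were counted, had near the same shares and medians. At the central protuberance 4 of 8 genes were lower (median -0.17), and around the exit of the peptide tunnel 3 of 8 (median -0.28), including Mrpl45, which tethers the ribosome to the inner membrane and fell by 0.51 ± 0.10 (adjusted p = 0.0092). Mrps36, the oxoglutarate dehydrogenase subunit, differed by -0.23 ± 0.09 (adjusted p = 0.142).

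Most genes without a call lay on the same side of 0: 39 were below and 4 above. Mrpl42, with the highest mean signal of the 74, read 10.97 to 12.08 in WT and 10.46 to 11.48 in KO. Its difference of -0.62 ± 0.23 was as large as several called ones, but its mice were spread more widely (adjusted p = 0.131). Of the other genes of highest signal, Mrpl50 is given above, and Mrpl39, at the tunnel exit, fell by 0.30 ± 0.08 (adjusted p = 0.048). The 3 genes of lowest signal were Mrpl33, Mrps25 and Mrps11, with differences of -0.02 ± 0.05, -0.20 ± 0.07 and -0.11 ± 0.05, and all 3 lay below the negative-control limit on every array. A feature's signal depends on its probes, so the order of levels between genes is not one of transcript abundance. Altogether 28 genes were above the limit on all 12 arrays and 20 on none, among them 4 called genes, Mrpl34, Mrpl36, Mrpl4 and Mrps10.

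The gene with the largest difference above 0 was Mrpl3, a large-subunit protein with a bacterial counterpart, named here because only 4 genes lay above 0. It read 7.12 to 7.29 in WT and 7.25 to 7.98 in KO, where KO female 40 was the highest. The difference of 0.30 ± 0.10 did not pass (adjusted p = 0.093). It passed, as the only higher gene of the 74, when KO female 40 was left out and also when dim features were left out of the test. Mrpl9, Mrps2 and Mrps23 differed by 0.15 ± 0.08, 0.10 ± 0.12 and 0.06 ± 0.10.

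The 3 Mrps18 paralogs also had no call. Mrps18a, of the large subunit, differed by -0.08 ± 0.05, Mrps18b by -0.43 ± 0.16 and Mrps18c by -0.14 ± 0.13. Mrps18b read 8.23 to 8.81 in WT and 7.86 to 8.05 in 5 KO livers, but 8.83 in KO male 19. A second feature that carries the symbols of both Mrps18b and Gm16279 was not used.

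The second comparison took each sex on its own. In males 6 of the 74 genes were lower and none was higher, against 0.506% of all features and 0.959% of named genes lower and 0.736% of named genes higher. In females 19 were lower and none was higher, against 3.06% of features and 5.76% of named genes lower and 3.65% of named genes higher. Among genes with a mean above the negative-control limit, 3.28% were lower in males and 18.3% in females. Of the 44 mitochondrial ribosomal genes above it, 13.6% (6 genes) and 36.4% (16 genes) were lower. With the poly-A covariate 0 of the 74 genes were called in either sex. Median differences were -0.20 in males and -0.28 in females, and all 31 genes called over both sexes were below 0 in each sex. The 6 genes called in males, Mrpl49, Mrpl50, Mrpl37, Mrps27, Mrpl12 and Mrpl11, were all called in females as well. Mrpl49 fell by 1.34 ± 0.18 in males (adjusted p = 0.0091) and by 1.55 ± 0.18 in females (adjusted p = 0.0020). Mrpl37 fell by 0.82 ± 0.11 in males (adjusted p = 0.0089) and by 0.89 ± 0.11 in females (adjusted p = 0.0024). With 3 mice a group these counts were fragile: the count in males ranged from 0, without WT male 23, to 6 over the fits that left out a mouse, and that in females from 4, without WT female 38, to 18.

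Whether the difference between genotypes itself differed between the sexes was tested by the interaction. None of the 74 genes passed (limma, smallest adjusted p = 0.534), 4 had an unadjusted p below 0.05, and 0.00152% of all features were called lower. The fall was larger in females for 24 of the 31 called genes and larger in males for 7, but over all 74 genes the interaction was below 0 for 43, with a median of -0.03. Mrps7 had the smallest p: it differed by -0.42 ± 0.15 in males (adjusted p = 0.263) and fell by 1.11 ± 0.15 in females (adjusted p = 0.0038), an interaction of -0.69 ± 0.21 (unadjusted p = 0.0091). The KO females, at 6.43, 6.68 and 6.85, were all below the KO males, at 7.25, 7.29 and 7.48, whereas the WT ranges of the sexes overlapped. Mrpl51 and Mrpl18 had interactions of -0.43 ± 0.18 and -0.48 ± 0.21, also towards females. Mrps30, which carries a small-subunit name but sits in the large subunit, differed by -0.18 ± 0.09 in males and 0.10 ± 0.09 in females. For Mrpl22, at the tunnel exit, the interaction of -0.40 ± 0.22 had an unadjusted p of 0.102.

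**Figure D3:**
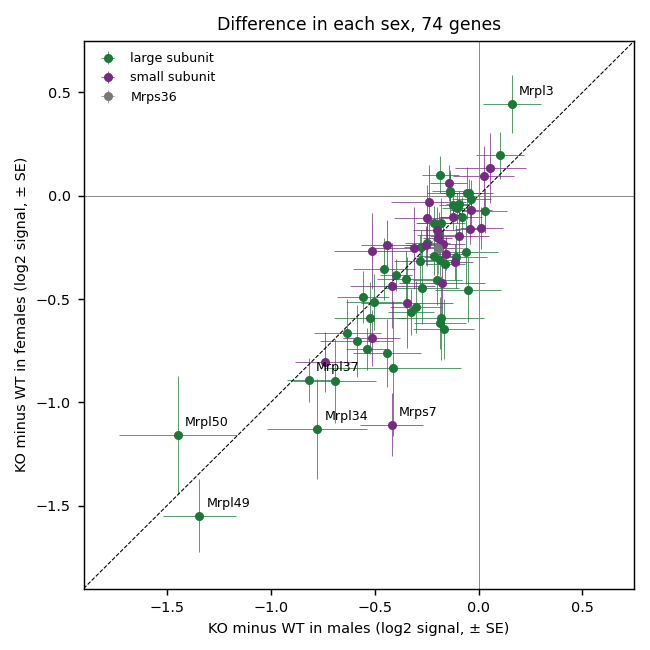
Difference between KO and WT in males (horizontal) and in females (vertical) for the 74 genes, in log2 signal units with the standard errors of the fit; the dashed line marks equal differences. Mrps7, at -0.42 in males and -1.11 in females, lies below the line by more than its standard errors, and Mrpl49, Mrpl50 and Mrpl37 lie far from 0 in both sexes.

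The other components of mitochondrial translation were read from gene lists, whose counts stand against the same shares of lower genes, 8.33% of all named genes and 24.3% of those above the negative-control limit. The lists mix genes above and below that limit, so neither share is a like measure. Below it on all 12 arrays were 6 of 16 translation factors, 10 of 16 aminoacyl-tRNA synthetases, 18 of 29 assembly genes and 6 of 21 transcription genes. With the poly-A covariate 0 genes of these lists were called by limma (smallest adjusted p = 0.193). Of the mitochondrial ribosomal proteins that carry other names, 2 of 4 were lower, none was higher, and Aurkaip1 had no feature of its own. Ptcd3, a small-subunit protein with pentatricopeptide repeats, fell by 0.63 ± 0.09 (adjusted p = 0.0027), and Gadd45gip1, of the large subunit, fell by 0.28 ± 0.07 (adjusted p = 0.025) and was called in 6 of the 12 fits without a mouse. Dap3, a GTP-binding protein of the small subunit, differed by -0.12 ± 0.08, and Chchd1 by -0.30 ± 0.12. These few genes thus ran from -0.63 to -0.12, all below 0.

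Translation factors had 10 of 16 genes lower and none higher, with a median of -0.57, or -0.31 with the poly-A covariate. Gatc and Gatb (listed as Pet112), subunits of the amidotransferase that makes glutaminyl-tRNA in mitochondria, fell by 1.21 ± 0.14 and 0.85 ± 0.10 (adjusted p = 0.0013 and 0.0015). Gfm2, a ribosome recycling factor, fell by 0.69 ± 0.07 (adjusted p = 0.00080), and Mtif3, an initiation factor, fell by 0.74 ± 0.09 (adjusted p = 0.0016), although Mtif3 lay below the negative-control limit on all arrays. All 4 had every KO liver below every WT liver. Among the mitochondrial aminoacyl-tRNA synthetases, which charge tRNAs with amino acids, 7 of 16 were lower and none was higher (median -0.25, or -0.09 with the covariate). Nars2, for asparagine, fell by 0.78 ± 0.07 (adjusted p = 0.00051) and Iars2, for isoleucine, by 0.74 ± 0.09 (adjusted p = 0.0012). Sars2 and Tars2, for serine and threonine, fell by 0.33 ± 0.06 and 0.39 ± 0.08.

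Assembly factors and enzymes that modify the ribosomal RNAs had 6 of 29 genes (20.7%) lower and none higher (median -0.15, or 0.01 with the covariate). This share lies between that of all named genes and that of genes above the negative-control limit. Eral1, which binds the small-subunit RNA during assembly, fell by 0.73 ± 0.10 (adjusted p = 0.0023), and Tfb1m, which methylates the same RNA, fell by 0.51 ± 0.10 (adjusted p = 0.012). Mtg1 and Mpv17l2, both needed for assembly, fell by 0.34 ± 0.06 and 0.69 ± 0.16, the latter called in 5 of the 12 such fits. Of the genes for mitochondrial transcription and RNA processing, 7 of 21 were lower and none was higher (median -0.16, or -0.06 with the covariate). Pnpt1 and Supv3l1, which together degrade mitochondrial RNA, fell by 0.83 ± 0.13 and 0.49 ± 0.10, and Fastk fell by 0.41 ± 0.08. Twnk, the mitochondrial DNA helicase, was also on this list and is among the 7, with a fall of 0.84 ± 0.15. Among 11 regulators of nuclear genes for mitochondrial proteins, none was lower and 1 was higher (median 0.13, or 0.38 with the covariate). Of the 11, 6 lay below the negative-control limit on all 12 arrays. For comparison, 5.82% of all named genes and 11.8% of those above the limit were higher. The regulator called higher was Myc, which rose by 0.75 ± 0.21 (adjusted p = 0.047) and was called in 3 of the 12 fits that left out a mouse. Gabpa, which encodes the DNA-binding part of GABP, differed by 0.27 ± 0.10 (adjusted p = 0.140), and Pprc1, a coactivator, by 0.17 ± 0.06 (adjusted p = 0.097).

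The mean of the 74 genes was also taken on each array, as a description. It was 6.94, 7.10 and 6.93 in WT males, 6.96, 6.90 and 7.04 in WT females, 6.65, 6.76 and 6.73 in KO males and 6.60, 6.71 and 6.56 in KO females. All KO arrays lay below all WT arrays, with KO male 19 the highest of the KO arrays and KO female 69 the lowest. The poly-A level of KO male 19, 6.06, was within the WT range of 5.98 to 6.81. Genes of the cytosolic ribosome, which translates nuclear messenger RNAs, had 1 of 44 lower and 10 higher (median 0.16), and their array means overlapped between the genotypes, at 9.61 to 10.06 in WT and 9.64 to 10.21 in KO. Subunits of respiratory complexes I to IV had 25 of 60 lower and 1 higher (median -0.37), with array means of 9.93 to 10.29 in WT and 9.55 to 9.81 in KO. Of all named genes 8.33% were lower and 5.82% higher, and of those above the negative-control limit 24.3% and 11.8%. Counts of the cytosolic and respiratory genes with the poly-A covariate are not given here. No test of one group of genes against another was made.

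Markers of other liver cells moved with genotype. Of 8 macrophage markers 7 were higher in KO and none was lower. Their mean log2 signal was 7.45 to 8.81 in WT and 9.59 to 13.58 in KO. For all marker lists the comparison is 5.82% of named genes higher and 8.33% lower, or 11.8% and 24.3% of those above the negative-control limit. With the poly-A covariate 0 markers of any list were called by limma (smallest adjusted p = 0.176). The medians with it were 3.86 for macrophage and 1.89 for neutrophil markers, against 2.77 and 0.80 without it. Of 8 neutrophil markers 5 were higher, with list means of 4.31 to 4.98 in WT and 5.42 to 8.54 in KO, while the defining markers Ly6g and Elane passed no test and lay below the negative-control limit on all arrays. KO male 39 had the lowest neutrophil mean of the KO livers, 5.42, and the lowest macrophage mean, 9.59, and its mean over the mitochondrial ribosomal genes was 6.73. KO female 40 had the highest macrophage mean, 13.58, and a mean of 6.71 over the mitochondrial ribosomal genes. KO male 18 had the highest neutrophil mean, 8.54, and a mean of 6.65 over them. All KO livers lay below all WT livers in the mean over the mitochondrial ribosomal genes. The livers named here therefore cannot tell whether that mean follows the marker levels. Of the hepatocyte markers, the 5 at the ceiling could show no change; Asgr1 fell by 0.84 ± 0.23 (adjusted p = 0.043) and Hnf4a differed by -0.46 ± 0.31 (adjusted p = 0.417). List means of all 7 were 17.779 to 18.005 in WT and 17.379 to 18.012 in KO. Of 6 endothelial markers 2 were lower and 3 higher, and none of the B and T cell, stellate, biliary or erythroid markers was called. Below the negative-control limit on all arrays were 6 of 6 B and T cell, 3 of 6 stellate, 3 of 4 biliary and 2 of 3 erythroid markers. The lack of a call thus says little about these cells. For 2 of the 3 erythroid markers every KO array was above every WT array, a pattern found in 2.34% of all named genes. The part of these cells in the lower levels of the mitochondrial ribosomal genes was not tested.

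**Figure D4:**
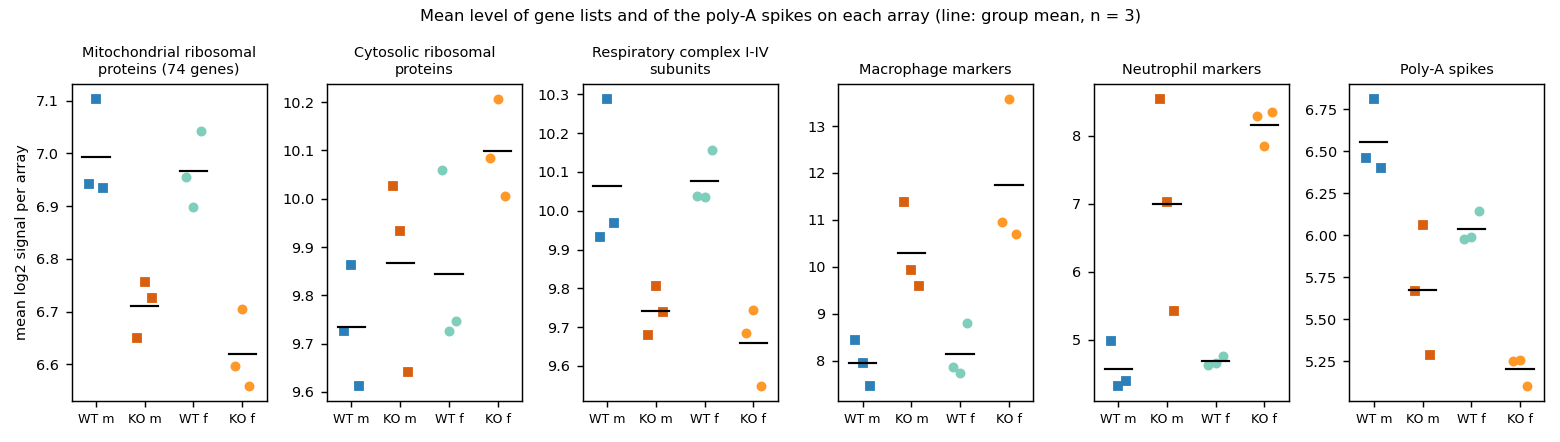
Mean log2 signal per array over 3 gene groups, 2 marker lists and the poly-A spikes, by genotype and sex, with the mean of 3 mice as a line; each panel has its own axis. The mitochondrial ribosomal mean was 6.90 to 7.10 in WT and 6.56 to 6.76 in KO, the macrophage and neutrophil means were higher in KO, and the poly-A level of KO male 19 lay among the WT values.

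**Figure D5:**
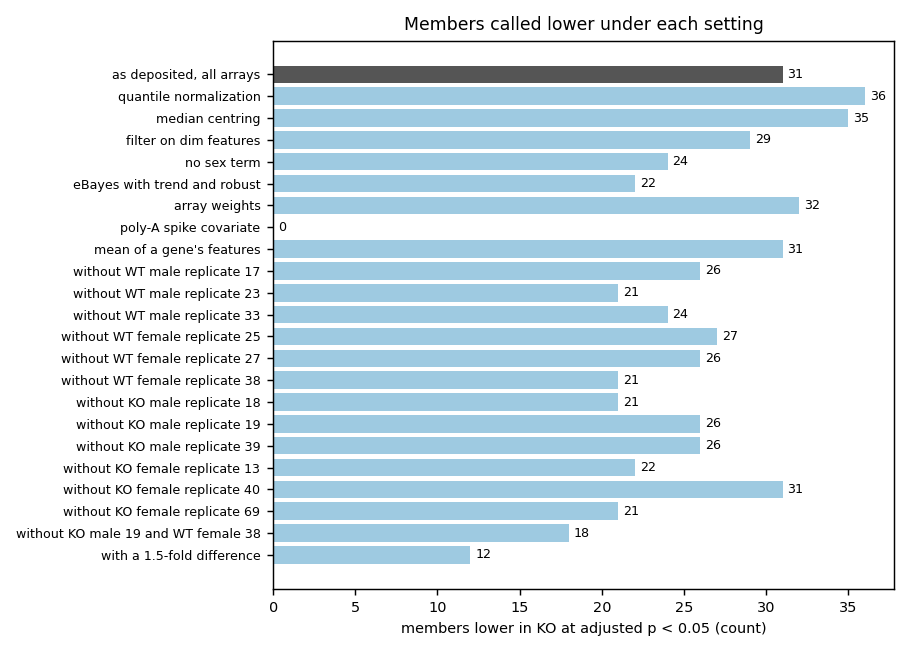
Number of the 74 genes lower in KO over both sexes at an adjusted p below 0.05 under each way of processing the data. The count is 31 with the values as deposited, 36 with quantile normalization, 21 to 31 when a mouse was left out, 18 without KO male 19 and WT female 38, 12 when a fall of 1.5-fold is also asked for, and 0 with the poly-A covariate.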

How the data were processed

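The values are the log2 signals per array feature as the authors deposited them; the submitters' processing notes name Transcriptome Analysis Console. Background correction, normalization, probe summary and build were not given in the sources used here. All arrays share a ceiling of 19.93, and every fold is one on this deposited scale. Of 72688 features, 6732 controls were set aside. Of the 65956 others, 30604 had 1 gene symbol in the platform annotation, 2146 had several and 33206 had none.

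A model of 4 group means (genotype by sex) was fitted across the 12 arrays by lmFit and eBayes (limma 3.58.1, R 4.3.3; 8 residual degrees of freedom), with Benjamini-Hochberg adjustment over the 65956 features. The fit was tested on simulated data. Replicates are mice with different animal numbers, and the number of arrays limits the precision. The genes and lists were chosen with earlier results of these data known. Members of the gene group were named for the 12 largest called differences in each direction, the 5 smallest p in each sex and for the interaction, the 3 highest and 3 lowest signals, and the 3 Mrps18 paralogs; up to 4 genes per related list were named by p. Other names were chosen after their values were seen. Alternatives were other scalings, filters, spread estimates, weights, the poly-A covariate and leaving out mice.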

Additional observations from a re-analysis of the deposited data

Results flagged for a closer look

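Among the 6 mice of a genotype, a single value stood far from the other 5 for 8 of the 74 genes; 152 groups of 6 were checked, and about 1 in 20 such groups is picked out by chance. Mrpl16 read 8.32 in KO male 19 and 7.51 to 7.76 in the other KO livers, and Mrps18b read 8.83 in the same mouse and 7.86 to 8.05 in the others. Mrpl3 read 7.98 in KO female 40 and 7.25 to 7.46 in the others, and Mrps18c read 8.38 in that mouse and 7.67 to 7.84 in the others. Mrps9 read 6.28 in KO male 18 and 6.12 to 6.17 in the others, and Mrps36 read 5.72 in KO female 69 and 5.98 to 6.10 in the others. Among WT livers, male 23 read 8.79 for Mrpl24 and 9.01 for Mrps24, against 8.36 to 8.46 and 8.35 to 8.58 in the others.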

How the results depend on the processing

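Over both sexes the count of lower genes was 36 with quantile normalization (29 of the 31 among them), 35 with median centring, 32 with array weights, 29 of 49 genes with a filter on dim features (31.7% of all named genes that passed it were lower), 24 without a sex term and 22 with a trended, robust spread; averaging features changed nothing, since each gene has 1. It was 12 with a 1.5-fold minimum, 18 without KO male 19 and WT female 38, 0 with the poly-A covariate and 21 to 31 when a mouse was left out. The count of higher genes was 1 (Mrpl3) with the filter and 0 to 1 when a mouse was left out. The median was -0.39 with the filter and -0.12 with the poly-A covariate. The filter asked for signal above the negative-control limit on 3 or more arrays of either genotype. That limit was higher in KO, so a gene low in KO could pass on WT arrays alone, as Mrpl49 did. Counts and medians after the filter therefore depend in part on the filter itself. In males the count lower was 11 of 49 with the filter (9.8% of named genes that passed), 3 with a trended, robust spread, 0 with the covariate and 0 to 6 without a mouse, and the median with the covariate was -0.12. In females the count lower was 0 with the covariate, 6 without KO male 19 and WT female 38 and 4 to 18 without a mouse; 1 gene was higher with quantile normalization and 1 with the filter; and the median was -0.37 with median centring, -0.42 with the filter and -0.13 with the covariate. With the covariate 47 of the 74 genes stayed below 0; among the 25 genes named by rule, those that changed sign were 0.055 for Mrpl16, 0.13 for Mrps30, 0.022 for Mrpl22 and 0.34 for Mrps18b. When a mouse was left out, Mrps30 ranged from -0.089 to 0.0027 and Mrpl33 from -0.043 to 0.0074. Of 520 values for 25 named genes under an alternative, 465 kept direction and call, 41 kept only the direction, 7 gained a call and 7 changed sign. Causes were not tested, beyond the fewer features or mice of some alternatives. Over all named genes, 2511 were lower and 1755 higher with the values as deposited, and 3379 and 1322 after quantile normalization. No paired analysis was possible because no animal number occurs in more than 1 group. Signal near background limits 20 of the 74 genes, which lay below the negative-control limit on all arrays. It also limits genes that lay below it on some arrays, such as Mrpl49 on every KO array.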
